A study of Mus musculus with 12 samples.

Results

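Oxidative phosphorylation genes of both genomes were followed in bulk RNA sequencing of newborn mouse thalamus. The members were all protein-coding genes whose symbol starts with Ndufa, Ndufb, Ndufc, Ndufs, Ndufv, Sdh, Uqcr, Cox4, Cox5, Cox6, Cox7, Cox8, Atp5 or mt-, without the Ndufaf assembly factors. Of 107 such genes, 99 reached a mean of 1 CPM (a library's counts scaled to a common total) over the 12 libraries and were kept, out of 55359 rows in the count files. The members were 88 nuclear genes and 11 of the 13 protein genes of the mitochondrial genome. Cox7b2 lay just inside the limit at 1.15 CPM and Cox4i2 just outside it at 0.719 CPM. The other genes left out were Cox7a1 (0.381 CPM), Cox8b (0 CPM), Cox8c (0.0131 CPM), Ndufb11b (0 CPM), a second Atp5po row (0 CPM), mt-Atp8 (0.668 CPM) and mt-Nd4l (0.205 CPM). All 99 members were among the 17501 genes tested.

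The tissue was the ventroposterior medial nucleus of the thalamus, a relay for touch from the face, microdissected at postnatal day 0 from 300 µm sections. The 3 groups of 4 libraries each were made from pools of 5 brains. Ctrl ALBSF was control tissue that receives input from the upper lip, Ctrl PMBSF was control tissue that receives input from the whisker pad, and embWPC ALBSF was upper lip tissue of embWPC pups. The labels give no strain, sex or genotype and do not spell out embWPC, and embWPC whisker pad tissue was not analysed here. The replicates are pools, so the spread between them is that of pools and not of single pups.

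Oxidative phosphorylation takes place in the inner mitochondrial membrane. Complex I (NADH dehydrogenase), complex II (succinate dehydrogenase), complex III (cytochrome bc1) and complex IV (cytochrome c oxidase) pass electrons to oxygen, and complex V (ATP synthase) uses the resulting proton gradient to make ATP. Complex II is encoded wholly in the nucleus, whereas the others combine nuclear subunits with a few encoded in the mitochondrial genome. Neurons depend heavily on this pathway for ion pumping and transmission.

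Library totals lay between 28457046 and 34512840 counts. The glutamatergic marker Slc17a6, which marks thalamic relay neurons, was found at 336 to 435 CPM in all 12 libraries. Summed meningeal markers (12 genes) spanned 20.3 to 23.7 CPM in Ctrl ALBSF, 19.4 to 104 in Ctrl PMBSF and 14.2 to 16.4 in embWPC ALBSF. Summed erythroid markers (9 genes) spanned 870 to 1332, 799 to 1018 and 402 to 776 CPM, and no gene of either list was at 0 in all libraries. Summed choroid plexus and ependyma markers (8 genes) stood at 102.5 CPM in Ctrl ALBSF 2 and 23.8 in Ctrl PMBSF 2. In the other libraries they spanned 4.09 to 9.10 CPM. Xist, made from the inactive X chromosome of females, spanned 0.0597 to 68.6 CPM, so pools differed in sex. In bulk tissue, fewer cells of a type and less RNA per cell cannot be told apart. The part of these differences in the results below was not tested.

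Levels between genes were compared as CPM per kilobase of the canonical transcript, averaged over the 12 libraries. Among nuclear subunits the median level was 105 CPM per kilobase for the 37 genes of complex I, 83.0 for the 4 of complex II, 124 for the 8 of complex III, 277 for the 16 of complex IV and 174 for the 17 of complex V. Within each complex the levels spanned a wider range than these medians did. In complex I, levels ran from 5.25 CPM per kilobase for Ndufb2, an accessory subunit of the membrane arm, to 348 for Ndufb8, another subunit of that arm. In complex II they ran from 46.9 for the membrane anchor Sdhc to 217 for the other anchor, Sdhd. Complex III spanned 25.7 for Uqcr11 to 380 for Uqcrb, both small accessory subunits. Complex V spanned 20.5 for Atp5mj, a small membrane protein, to 1872 for Atp5f1b, the catalytic beta subunit and the most abundant nuclear member on this scale. These levels depend on the length used: per kilobase of all exons joined, the medians were 33.8, 44.9, 62.7, 33.8 and 40.1 for complexes I to V.

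Complex IV had the widest range, and its lowest values were those of paralogs. Cox4i1, a core structural subunit, stood at 1022 CPM per kilobase and its paralog Cox4i2 at 0.947. Cox6a1, the general form of its subunit, stood at 1044 and the muscle form Cox6a2 at 4.71. Cox6b1 stood at 674 and its testis form Cox6b2 at 4.52. In each pair 1 form thus held nearly all the counts. Likewise Cox8a stood at 578 CPM per kilobase, with Cox8b at 0 counts in all libraries, and Ndufa4, a subunit named for complex I but found in complex IV, at 794, with its paralog Ndufa4l2 at 5.84. Cox7a2 stood at 235, Cox7a2l, a factor in supercomplex assembly, at 100.5, and the muscle form Cox7a1 at 0.864. The lowest complex IV member was Cox7b2 at 0.550 CPM per kilobase. Complex V differed in that its 3 genes for the membrane ring subunit c were all found: Atp5mc1 at 696, Atp5mc2 at 89.9 and Atp5mc3 at 778 CPM per kilobase. The X-linked members Ndufa1, Ndufb11 and Cox7b stood at 163, 81.7 and 106 CPM per kilobase.

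Levels of the mitochondrially encoded genes spanned a wide range. On the scale of CPM per kilobase, mt-Nd1 of complex I stood at 6587 and mt-Cytb, the cytochrome b of complex III, at 6266. mt-Co1, the catalytic subunit of complex IV, stood at 2866, followed by mt-Nd2 at 1461, mt-Nd4 at 843, mt-Nd5 at 770 and mt-Nd6 at 442. The remaining genes were far lower: mt-Co3 at 104, mt-Atp6 at 100.4, mt-Co2 at 42.3, mt-Nd3 at 4.98, mt-Atp8 at 3.28 and mt-Nd4l at 0.689. These 6 low genes lie next to each other in the mitochondrial genome, and they are the 6 that lie wholly inside a segment copied almost unchanged into chromosome 1. On GRCm39 the copy occupies chr1:24650616-24655269 on the minus strand and matches mitochondrial positions 6390 to 11042 at 4651 of 4654 aligned bases, or 99.9%. The start of mt-Co2 shows how close the match is. Its first 90 bases (mitochondrial positions 7013 to 7102, plus strand, start codon in capitals) were identical at 90 of 90 positions to chr1:24654557-24654646.
mt-Co2 start, both places: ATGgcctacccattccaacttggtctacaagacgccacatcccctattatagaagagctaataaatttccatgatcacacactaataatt
The only substitution within the 6 genes is T9461C in mt-Nd3, written as the mitochondrial base, its position in the GRCm39 mitochondrial genome and the base of the copy. The 2 stretches of 61 bases around it (mitochondrial positions 9431 to 9491 and, read on the minus strand, chr1:24652168-24652228) are shown with that base in capitals.
mt-Nd3 in the mitochondrial genome: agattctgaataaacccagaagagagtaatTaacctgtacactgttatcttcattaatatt
mt-Nd3 in the chromosome 1 copy: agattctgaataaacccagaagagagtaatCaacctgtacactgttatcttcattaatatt

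**Figure D1:**
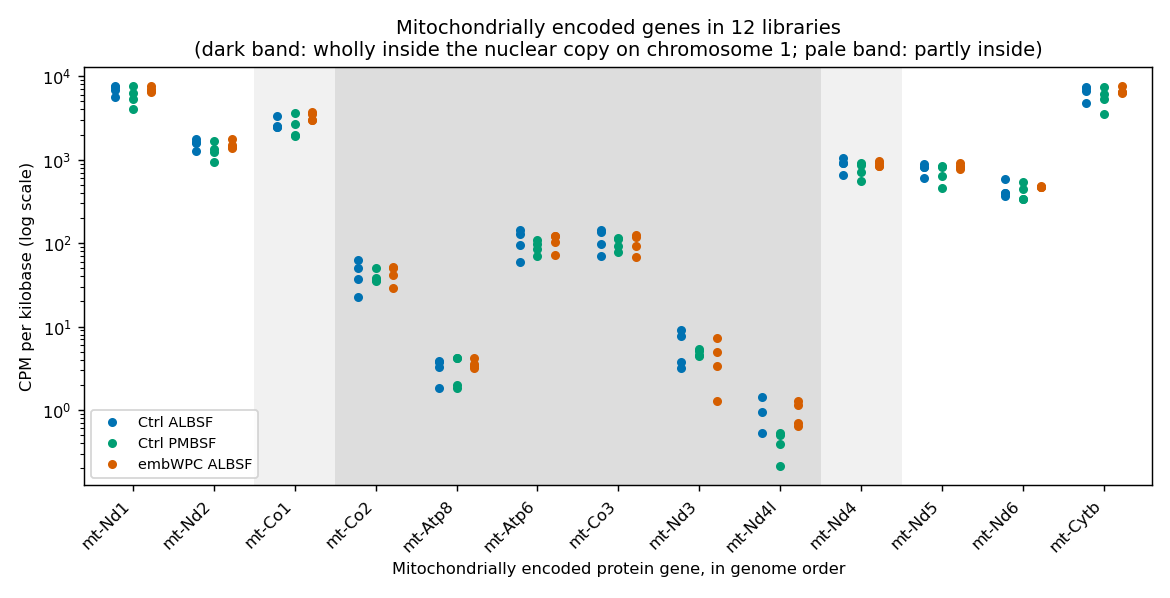
Level of the 13 mitochondrial protein genes, in genome order, as CPM per kilobase on a log axis; points are the 12 libraries and bands mark genes wholly (dark) or partly (pale) inside the chromosome 1 copy. The 6 genes of the dark band have means between 0.689 and 104 CPM per kilobase, against 442 to 6587 for the 5 genes outside the copy; mt-Nd4l had 0 counts in Ctrl ALBSF 1, which is not drawn.

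The 6 genes inside the copy held 0.810% of the counts of the mitochondrial protein genes, the 2 that lie partly inside it (mt-Co1 over 31.3% of its length, mt-Nd4 over 63.6%) held 25.0%, and the 5 outside it held 74.2%. Annotated pseudogenes in the copy also took counts. For mt-Co2, the pseudogene Gm28661 held 54.9% of the counts of the pair, with a range of 48.5 to 57.4% over the libraries. The share was 53.9% for Atp6-ps against mt-Atp6, and 43.9% for Gm28437 against mt-Co3. For mt-Nd3, the gene with the substitution, it was 97.5% for Gm28438. Thus counts were split near evenly between mt-Co2, mt-Atp6 and mt-Co3 and their copies, and fell almost wholly on the copy for mt-Nd3. Even summed with their copies these genes stayed low, at 93.9 CPM per kilobase for mt-Co2, 218 for mt-Atp6, 186 for mt-Co3 and 195 for mt-Nd3. mt-Co1, all of which also lies in a copy on chromosome 2 of 97.4% identity, was among the most abundant. How reads that align to more than 1 place were counted is not given in the sources used here, so its part in these levels was not tested. The levels of mt-Co2, mt-Co3, mt-Atp6 and mt-Nd3 are therefore uncertain. mt-Nd5 and mt-Nd6 also overlap by 14 bases on opposite strands, and whether counting used the strand is not given either.

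The nuclear members' promoters were compared with all promoters in RefSeq (GRCm38.p6, 250 bases before to 50 after the start). Of 88 nuclear members, 71 had an entry, with 76 promoters in all, against 32851 promoters over all genes. NRF1, GABPA and YY1 are transcription factors known to act on genes of mitochondrial proteins. The NRF1 letters GCGCATGCG, searched on both strands, were present in 8 of 76 member promoters (10.5%, 95% exact binomial interval 4.66 to 19.7%) and in 1.75% of all promoters. The YY1 letters AAGATGGCG were present in 7 (9.21%, interval 3.78 to 18.1%) and in 1.40% of all. The GABPA letters CCGGAAGT were present in 5 (6.58%, interval 2.17 to 14.7%) against 3.89%, and the GC box GGGCGG in 33 (43.4%, interval 32.1 to 55.3%) against 35.7%. The intervals cover counting error only, and a match is a description and not a site. In 6 of the 7 promoters with a YY1 match the letters read forward and began 20 to 40 bases after the start. The same held for 131 of the 461 matching promoters over all genes (28.4%). This window was not planned and lies around the members' own matches, so these shares are no test of the placing. The NRF1 genes were Atp5mc2, Atp5me, Atp5mg, Cox6a1, Ndufa11, Ndufa8, Uqcr11 and Uqcrc1. The YY1 genes were Atp5mf, Atp5pf, Ndufa9, Ndufc1, Ndufs4, Ndufs6 and Ndufs7.

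The promoters of Uqcr11 and Uqcrc1 are shown. These complex III genes have the shortest and the longest coding sequence among the genes with an NRF1 match, and Uqcrc1 was picked with its values known. They are read in the direction of the gene on GRCm38.p6, chr10:80406772-80407071 on the minus strand and chr9:108936398-108936697 on the plus strand, with the NRF1 and GABPA letters in capitals. In Uqcrc1 overlapping matches on both strands form 1 run of capitals.
Uqcr11 promoter: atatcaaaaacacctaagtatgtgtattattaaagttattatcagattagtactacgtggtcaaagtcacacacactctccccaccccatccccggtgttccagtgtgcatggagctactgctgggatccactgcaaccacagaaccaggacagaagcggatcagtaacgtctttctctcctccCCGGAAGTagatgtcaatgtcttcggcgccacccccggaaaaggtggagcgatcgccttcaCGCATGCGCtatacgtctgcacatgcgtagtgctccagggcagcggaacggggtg
Uqcrc1 promoter: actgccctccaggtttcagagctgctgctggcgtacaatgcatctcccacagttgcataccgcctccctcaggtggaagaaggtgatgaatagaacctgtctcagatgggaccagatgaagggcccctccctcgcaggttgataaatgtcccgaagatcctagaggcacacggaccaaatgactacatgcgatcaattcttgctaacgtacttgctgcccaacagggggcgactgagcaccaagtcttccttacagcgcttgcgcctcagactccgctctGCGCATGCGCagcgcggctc
Ndufc1, a complex I accessory subunit, is shown for its YY1 match (capitals), at chr3:51408906-51409205 on the minus strand.
Ndufc1 promoter: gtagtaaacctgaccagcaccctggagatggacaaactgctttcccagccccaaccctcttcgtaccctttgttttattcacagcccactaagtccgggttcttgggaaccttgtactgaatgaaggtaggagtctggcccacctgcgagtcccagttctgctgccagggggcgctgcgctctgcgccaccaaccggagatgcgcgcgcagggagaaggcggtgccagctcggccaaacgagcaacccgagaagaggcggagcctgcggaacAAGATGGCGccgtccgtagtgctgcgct

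Uqcr11 and Uqcrc1 differed across libraries. Uqcr11 stood at 57.7, 95.9, 85.7 and 87.7 CPM in Ctrl ALBSF, at 70.8, 71.1, 64.1 and 79.7 in Ctrl PMBSF and at 72.1, 43.7, 84.9 and 34.9 in embWPC ALBSF. Uqcrc1, a core subunit, stood at 598, 530, 550 and 575 CPM, at 639, 601, 632 and 645, and at 659, 608, 576 and 653 in the same order. Uqcr11 was thus lowest in embWPC ALBSF 4 and highest in Ctrl ALBSF 2, whereas Uqcrc1 was lowest in Ctrl ALBSF 2 and among its highest in embWPC ALBSF 4.

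This contrast followed coding length over all the nuclear members. Each gene's deviation was taken as its log2 CPM minus its mean over the 12 libraries, and the genes were put in classes of coding length whose bounds were chosen after the data were seen. In embWPC ALBSF 4 the median deviation was -1.11 for the 21 members of up to 300 nt and -0.97 for the 29 of over 300 and up to 450 nt. It was -0.64 for the 17 of up to 600 nt, -0.49 for the 9 of up to 900 nt, -0.14 for the 8 of up to 1500 nt and -0.04 for the 4 longer ones. In this library the shortest genes were thus the farthest below their mean and the longest ones near it. embWPC ALBSF 2 had the same order with smaller values, from -0.40 in the shortest class to 0.02 in the longest. So had the control libraries Ctrl ALBSF 1, from -0.31 to -0.03, and Ctrl PMBSF 3, from -0.31 to -0.09. This order was thus not confined to embWPC libraries. Ctrl ALBSF 2 had the reverse order, from 0.49 to -0.15.

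**Figure D2:**
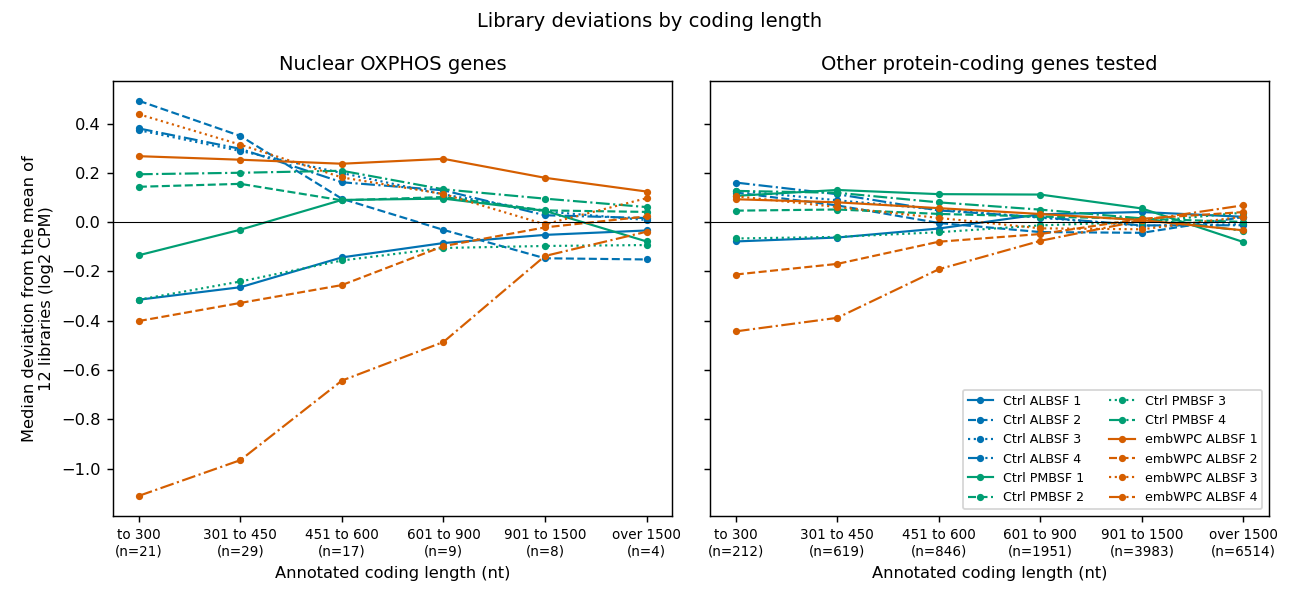
Median log2 deviation from the 12-library mean (y axis) by class of coding length in nt (x axis), 1 line per library; the panels show the nuclear members and the other protein-coding genes tested. The line of embWPC ALBSF 4 runs from -1.11 to -0.04 among the members and from -0.44 to 0.07 among the other genes.

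embWPC ALBSF 4 was the lowest library for 47 of the 50 members with up to 450 nt, for 25 of the 26 with over 450 and up to 900 nt and for 4 of the 12 longer ones. Over all genes tested it was the lowest for 14.1%. Ctrl ALBSF 2 was the highest library for 22 of the 50 shortest members, and embWPC ALBSF 1 for 9 of the 12 longest. Genes outside the members showed the same order in embWPC ALBSF 4 with smaller values, from -0.44 for the 212 genes of up to 300 nt to 0.07 for the 6514 of over 1500 nt. The 76 cytosolic ribosomal protein genes had a median of -0.78 there and the 77 mitochondrial ribosomal protein genes one of -0.37. So the order by length was not confined to oxidative phosphorylation genes. Erythroid markers were also lowest in this library, at 402 CPM.

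The spread between replicates differed in the same way. The median within-group standard deviation (log2 scale) was 0.44 for the 50 members of up to 450 nt and 0.10 for the 12 of over 900 nt. It was 0.21 for all genes tested and 0.13 for the 7331 of them with a mean log2 CPM over 4. Complex II had the lowest median, 0.10, against 0.36 for complex I, 0.44 for complexes III and IV and 0.39 for complex V. Members of like coding length differed: Sdhc (507 nt) had 0.09 and Sdhd (477 nt) 0.12, whereas Cox4i1 (507 nt) had 0.34 and Cox7a2l (519 nt) 0.12. Sdha, the flavoprotein that oxidises succinate, had the lowest value of all members, 0.06, and Cox6a2 the highest nuclear one, 0.66. Sdha stood at 192, 165, 158 and 164 CPM in Ctrl ALBSF, at 203, 166, 190 and 175 in Ctrl PMBSF and at 158, 172, 167 and 203 in embWPC ALBSF. Atp5me, a small subunit of the membrane part of ATP synthase, stood at 23.4, 50.4, 36.3 and 37.3, at 28.7, 33.9, 25.5 and 29.4, and at 32.5, 21.8, 40.9 and 12.6. The groups overlapped for both, but the lowest and highest libraries of Atp5me lay several-fold apart. The highest spread among members of over 900 nt was that of Ndufv3, 0.39 at a coding length of 1404 nt. The lowest among members of up to 450 nt was that of Ndufb2, 0.21 at 315 nt in a canonical transcript of 4389 nt. Sdha, Atp5me, Ndufv3 and the long Uqcrc1 were picked as examples after their values were seen.

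Mitochondrially encoded members had a median within-group standard deviation of 0.32. Their most frequent lowest library was another one than that of the short nuclear members. It was Ctrl PMBSF 1, with 7 of the 11, and 17.2% of the 17501 genes tested were also lowest there. The most frequent highest library was the same, Ctrl ALBSF 2, with 6 of the 11 here and 22 of the 50 nuclear members of up to 450 nt. mt-Cytb stood at 5488, 8407, 8214 and 7624 CPM in Ctrl ALBSF, at 4003, 8439, 7054 and 6089 in Ctrl PMBSF and at 7391, 7440, 8664 and 7206 in embWPC ALBSF. mt-Nd1 followed it, with 3864 CPM in Ctrl PMBSF 1 and 5445 to 7390 in all other control libraries except Ctrl PMBSF 4, at 5181. The embWPC ALBSF libraries sat within the control range for mt-Nd1, and embWPC ALBSF 3 was above it for mt-Cytb. The 4 members wholly inside the chromosome 1 copy moved otherwise: their median deviation was lowest in embWPC ALBSF 4 (-0.71) and Ctrl ALBSF 1 (-0.67) and highest in Ctrl ALBSF 2 (0.59). For the other 7 the median was -0.07 in embWPC ALBSF 4 and lowest in Ctrl PMBSF 1 (-0.74).

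Summed over its members, each complex took a similar share of counts in all groups. Nuclear complex I subunits took 0.492% ± 0.0375 (SD, n = 4) of counts in Ctrl ALBSF, 0.510% ± 0.0292 in Ctrl PMBSF and 0.443% ± 0.0784 in embWPC ALBSF. Complex II took 0.101% ± 0.00317, 0.111% ± 0.00645 and 0.0999% ± 0.00473. The groups overlapped in both complexes. Complex III took 0.185% ± 0.00861, 0.193% ± 0.00789 and 0.179% ± 0.0219. Complex IV took 0.433% ± 0.0650, 0.405% ± 0.0398 and 0.369% ± 0.119, and within embWPC ALBSF ran from 0.237% in replicate 4 to 0.497% in replicate 3. Complex V, the largest share, took 0.938% ± 0.0479, 0.969% ± 0.0677 and 0.949% ± 0.120. The spread within embWPC ALBSF was the widest of the groups in complexes I, III, IV and V.

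**Figure D3:**
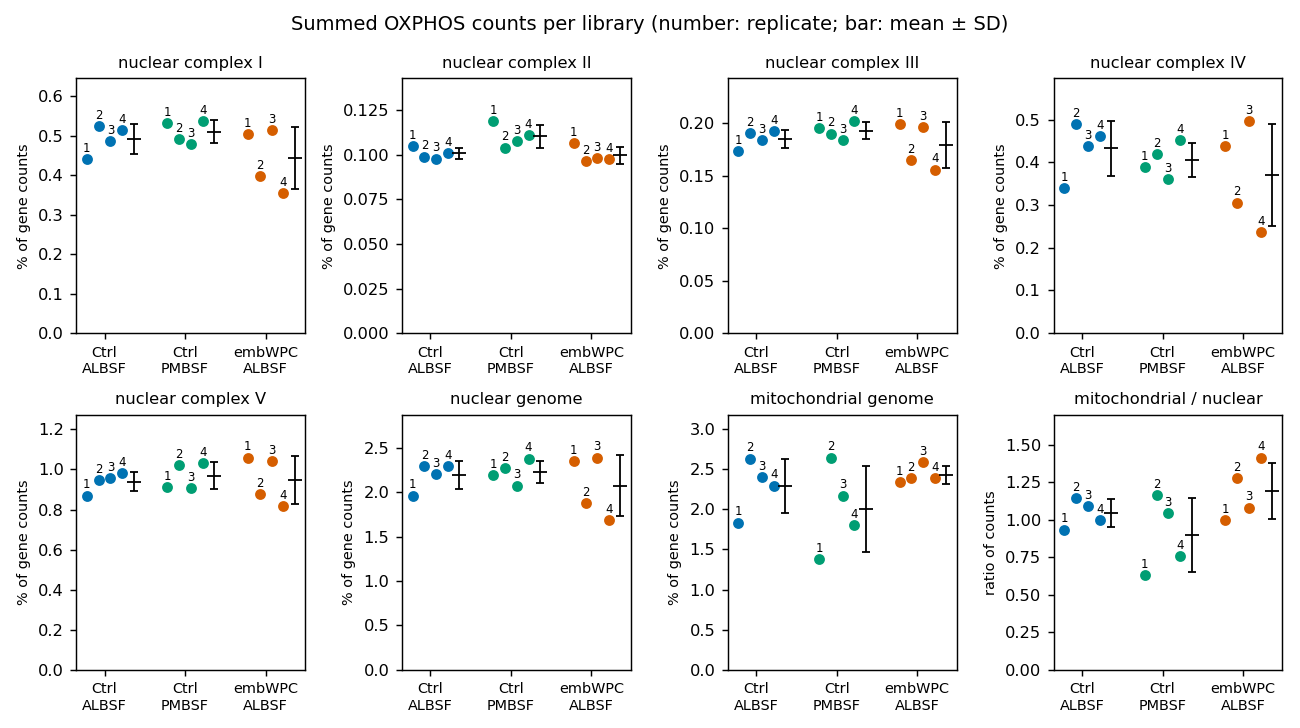
Share of each library's counts (percent, y axis from 0) for the nuclear subunits of each complex and for both genomes, and the ratio of mitochondrial to nuclear counts; points are libraries with their replicate number, bars the mean ± SD of 4. Groups overlap in every panel, and embWPC ALBSF 4 is the lowest library for nuclear members (1.69%) and the highest for the ratio (1.41).

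All nuclear members together took 2.19% ± 0.158 of counts in Ctrl ALBSF, 2.23% ± 0.128 in Ctrl PMBSF and 2.08% ± 0.348 in embWPC ALBSF. The 11 mitochondrially encoded members took 2.29% ± 0.336, 2.00% ± 0.537 and 2.43% ± 0.108. The ratio of mitochondrial to nuclear counts was 1.04 ± 0.0938, 0.900 ± 0.248 and 1.19 ± 0.189, from 0.631 in Ctrl PMBSF 1 to 1.41 in embWPC ALBSF 4. The low ratio in Ctrl PMBSF 1 came with the lowest mitochondrial share of the 12, 1.38%, and the high one in embWPC ALBSF 4 with the lowest nuclear share, 1.69%. The ranges of the groups overlapped for all of these values.

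The first comparison set whisker pad tissue against upper lip tissue in controls. No member passed edgeR's quasi-likelihood test at an adjusted p of 0.05, where 284 of the 17501 genes did (1.62%). At an unadjusted p under 0.05 there were 0 members, with 11.8% of all genes. DESeq2 and limma's voom also called 0 members, where they called 523 and 443 of the 17501 genes. Fitted values leaned low in Ctrl PMBSF, in 60 of 88 nuclear members (median log2 difference -0.10) and in 11 of 11 mitochondrially encoded members (median -0.31), where the median of all genes was 0.00. By complex, the nuclear medians were -0.08 for I, 0.04 for II, -0.13 for III, -0.15 for IV and -0.09 for V, and 0.10 for the 4 complex II assembly factors. Single libraries moved these medians: without Ctrl PMBSF 3 that of the nuclear members was -0.03 and without Ctrl ALBSF 1 it was -0.21, and without Ctrl PMBSF 1 that of the mitochondrially encoded members was -0.16. Nuclear members of up to 300 nt had a median of -0.28 and those of over 900 and up to 1500 nt one of 0.06. For other genes these classes had medians of -0.04 and 0.02.

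The smallest p belonged to Ndufa3, a small accessory subunit of complex I, at 25.2, 42.5, 33.4 and 27.4 CPM in Ctrl ALBSF and 28.5, 25.3, 23.6 and 23.5 in Ctrl PMBSF. Its log2 difference was -0.45 ± 0.22 (SE; edgeR adjusted p = 0.457), and the groups overlapped. mt-Nd2 (-0.35 ± 0.19, edgeR adjusted p = 0.504), mt-Nd4 (-0.32 ± 0.18, edgeR adjusted p = 0.517), Cox5b-ps, a Cox5b-like gene that the annotation lists as protein coding (-0.47, edgeR adjusted p = 0.538), and mt-Nd1 (-0.34, edgeR adjusted p = 0.569) came next. Ndufv1, the flavoprotein of complex I that binds NADH, was the only member with groups that did not overlap on the scaled log2 values, as did 8.28% of all genes. It stood at 212, 194, 191 and 205 CPM in Ctrl ALBSF and at 232, 217, 242 and 237 in Ctrl PMBSF. Every Ctrl PMBSF library lay above every Ctrl ALBSF library, and the fitted log2 difference between the groups was 0.11 ± 0.07 (edgeR adjusted p = 0.618).

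**Figure D4:**
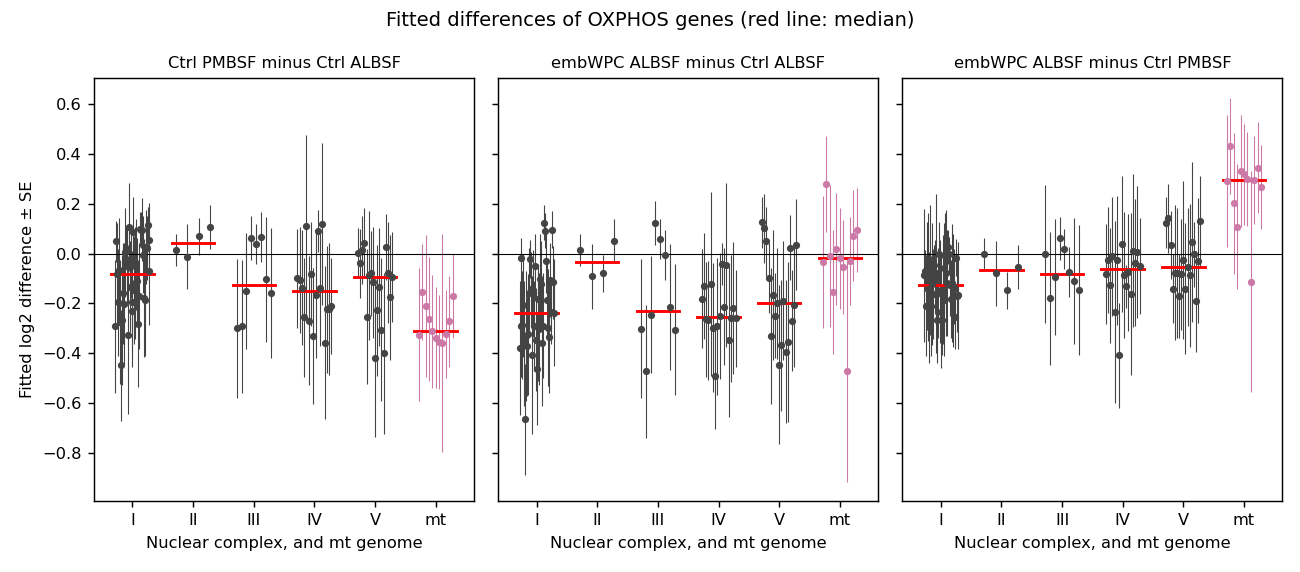
Log2 difference of each member (points) with its SE (bars) by nuclear complex and for the mitochondrially encoded members (mt), in the 3 comparisons, with red lines at the medians; assembly factors, Atp5if1 and Cox5b-ps are not drawn, and no member passed the test. Mitochondrially encoded members lie below 0 in all 11 cases for Ctrl PMBSF against Ctrl ALBSF and above 0 in 10 of 11 for embWPC ALBSF against Ctrl PMBSF, comparisons that share the Ctrl PMBSF libraries.

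Control libraries with the same replicate number deviated together, so the territories were also compared within replicate numbers. The pools numbered 2 differed in sex (Xist at 68.6 and 0.0597 CPM) and were thus not of the same pups. In pairs 1, 3 and 4, Xist stood at 22.8 and 23.2, 0.0628 and 0.125, and 14.8 and 14.9 CPM. With the replicate as a block edgeR called 0 members and 857 of 17000 genes (5.04%, with 2.61% lower in Ctrl PMBSF), and 24 members had an unadjusted p under 0.05, as did 19.4% of all genes. Within numbers, nuclear members had median differences of 0.18, -0.14, -0.45 and -0.05 in replicates 1 to 4. The sign was thus not the same in all pairs. Mitochondrially encoded members had medians of -0.31, -0.11, -0.26 and -0.42, with 7, 8, 10 and 11 of the 11 lower in Ctrl PMBSF. When each library's trend on coding length, estimated from genes outside the members, was added to the block, 8 of 99 members were called, all lower in Ctrl PMBSF (8.08%, against 6.64% of all genes in either direction and 3.49% lower). They were Ndufc1, Ndufa3, Uqcr10, Cox6c, Cox7c, Atp5me, Atp5mj and Atp5mk, all short accessory subunits of complexes I, III, IV and V, with log2 differences from -0.24 to -0.40 (edgeR adjusted p from 0.0150 to 0.0485). This fit was added after the data were seen, and no other fit called a member. All 8 had coding lengths of up to 300 nt. In that class the median was -0.28 for nuclear members and -0.04 for other genes. The trend taken out was that of other genes and need not match the members' own order by length. The cause of the difference left among the members was not tested. Ndufa3's adjusted p ranged from 0.0176 in this fit to 0.762 when Ctrl ALBSF 2 was left out.

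The second comparison set embWPC against control tissue within the upper lip territory. edgeR called 0 members and 11 genes in all (0.0629%). Unadjusted p was under 0.05 for 2 members, Ndufa3 and Cox6b2, and for 9.22% of all genes. DESeq2 and voom called 0 members, where they called 181 and 75 of the 17501 genes. Fitted values were lower in embWPC ALBSF for 76 of 88 nuclear members, with a median of -0.22, and for 7 of 11 mitochondrially encoded members, with a median of -0.02. All genes had a median of -0.01. The medians were -0.24 for complex I, -0.03 for II, -0.23 for III, -0.26 for IV, -0.20 for V and -0.17 for the complex II assembly factors.

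These nuclear differences ran with coding length and with 2 libraries. The median was -0.35 for members of up to 300 nt and 0.11 for the 4 of over 1500 nt, against -0.19 and 0.02 for other genes of those lengths. Without embWPC ALBSF 4 the median of the nuclear members was -0.04, and without both embWPC ALBSF 2 and 4 it was 0.12. Both libraries were low in short genes outside the members as well. A fit added after the data were seen took out each library's trend on coding length, as estimated from genes outside the members. In it the median of the nuclear members was -0.12, and 0 members and 16 genes in all were called. The other genes differed less in the shortest class than the members (-0.19 against -0.35). The offsets came from these genes and need not match the members' own order by length. The cause of the difference left among the members was not tested.

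Ndufa3 had the smallest p here too, with 24.2, 18.4, 25.5 and 13.1 CPM in embWPC ALBSF, and a log2 difference of -0.67 ± 0.22 (edgeR adjusted p = 0.354). The embWPC range overlapped only the lowest Ctrl ALBSF library. Cox6b2 stood at 2.48, 4.01, 3.14 and 2.27 CPM in Ctrl ALBSF and at 1.59, 2.81, 2.23 and 1.99 in embWPC ALBSF. Its difference was -0.49 ± 0.21 (edgeR adjusted p = 0.514), on a level of a few CPM and with overlapping groups. Ndufb4 (-0.46), Cox5b-ps (-0.54), Sdhaf4 (-0.29), which helps mature Sdha, and Ndufa6 (-0.37) followed. Ndufs1, the large iron-sulfur subunit of complex I, was the only member whose scaled log2 values did not overlap between these groups, as for 5.74% of all genes. It stood at 121, 95.3, 103 and 109 CPM in Ctrl ALBSF and at 108, 115, 115 and 140 in embWPC ALBSF. These unscaled values overlapped, and the log2 difference was 0.12 ± 0.07 (edgeR adjusted p = 0.615). Ndufs1 was named after its values were seen.

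The third comparison set the upper lip territory of embWPC pups against the whisker pad territory of controls. edgeR called 0 members and 1 gene in all (0.00571%). Unadjusted p was under 0.05 for 2 members, Sdhaf3 and mt-Co1, and for 9.47% of all genes. DESeq2 and voom called 0 members, where they called 77 and 1 of the 17501 genes. Nuclear members were fitted lower in 77 of 88 cases with a median of -0.09, and mitochondrially encoded members higher in 10 of 11 with a median of 0.29. All genes had a median of -0.02. This comparison shares libraries with each of the other 2, so its values are not separate evidence for them. By complex the nuclear medians were -0.13 for I, -0.07 for II, -0.08 for III, -0.06 for IV, -0.05 for V and -0.27 for the complex II assembly factors. Without embWPC ALBSF 4 the median of all nuclear members was 0.08, and with the other genes' trend on coding length taken out it was -0.01. Without Ctrl PMBSF 1 the median of the mitochondrially encoded members was 0.17.

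Sdhaf3, an assembly factor for the iron-sulfur subunit of succinate dehydrogenase, stood at 25.2, 19.2, 22.8 and 21.9 CPM in Ctrl PMBSF and at 17.3, 17.4, 17.7 and 17.8 in embWPC ALBSF. Every embWPC library lay below every Ctrl PMBSF library, as was the case in 1 direction or the other for 4.73% of all genes. The log2 difference was -0.27 ± 0.10 (edgeR adjusted p = 0.451). mt-Co1 stood at 3078, 5616, 4181 and 2999 CPM in Ctrl PMBSF and at 4653, 5513, 4644 and 5818 in embWPC ALBSF. Its difference was 0.43 ± 0.19 (edgeR adjusted p = 0.518), and Ctrl PMBSF 2 lay among the embWPC libraries. Sdhaf1 (-0.31), another assembly factor of complex II, Sdhc (-0.15), Ndufs8 (-0.26), an iron-sulfur subunit, and Ndufb5 (-0.27) came next by p.

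Other genes of the pathway were read from 11 lists. In Ctrl PMBSF against Ctrl ALBSF, edgeR called 2 of the 216 genes tested (0.926%, against 1.62% of all genes): Sirt3, a mitochondrial deacetylase (0.32 ± 0.07, edgeR adjusted p = 0.0258), and Mrps27, of the small mitochondrial ribosomal subunit (0.41 ± 0.09, edgeR adjusted p = 0.0448). Both were higher in Ctrl PMBSF. They were 1 of 16 regulators of mitochondrial biogenesis and 1 of 77 mitochondrial ribosomal proteins, a list with 64 fitted higher and a median of 0.08. The 9 other lists held no called gene in this comparison. Fitted values were higher for 15 of 17 complex I assembly factors (median 0.10, smallest p for Ecsit), 5 of 6 complex III assembly factors (0.11, Ttc19), 13 of 17 for complex IV (0.03, Cox11) and 3 of 4 for complex V (0.11, Tmem70). They were also higher for 14 of 17 genes of mitochondrial DNA transcription and replication (0.11, Mterf1a), 13 of 16 of mitochondrial RNA processing (0.06, Mtpap), 17 of 18 of the citric acid cycle and pyruvate dehydrogenase (0.06, Idh3a) and 11 of 19 of glycolysis (0.03, Ldhb). Cytochrome c and the other chain genes outside the chosen prefixes were higher in 4 of 9 (-0.03, Gpd2). The lists of assembly factors and the cycle thus had medians above 0, as had nuclear members of over 600 nt and complex II, whereas the median of all 88 nuclear members was -0.10. No test of these differences was made.

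In both comparisons with embWPC ALBSF edgeR called 0 genes of the 11 lists. Of all genes it called 0.0629% against Ctrl ALBSF and 0.00571% against Ctrl PMBSF. Against Ctrl ALBSF, mitochondrial ribosomal proteins were fitted lower in 61 of 77 (median -0.10), complex I assembly factors in 11 of 17 (-0.03) and the citric acid cycle genes in 3 of 18 (0.07). Against Ctrl PMBSF the counts were 74 of 77 (-0.18), 15 of 17 (-0.16) and 8 of 18 (0.01). Cell type markers were read in the same way. In Ctrl PMBSF against Ctrl ALBSF, edgeR called Foxp2 (-0.88), Tcf7l2 (-0.76) and Rora (0.39) of 12 relay neuron genes. It also called Sox10 (-0.67) of 10 oligodendrocyte genes, and none in the other marker lists, where 1.62% of all genes were called. In the comparisons with embWPC ALBSF it called 0 markers, where 0.0629% and 0.00571% of all genes were called. Several marker lists were fitted in 1 direction without a called gene. In Ctrl PMBSF against Ctrl ALBSF, meningeal markers were higher in 12 of 12 (median 1.36), and microglial and erythroid ones lower in 10 of 10 (-0.26) and 6 of 6 (-0.36). In embWPC ALBSF against Ctrl ALBSF, meningeal, microglial, erythroid and GABAergic markers were lower in 12 of 12 (-0.78), 10 of 10 (-0.46), 6 of 6 (-0.71) and 10 of 10 (-0.67). Against Ctrl PMBSF the counts were 12 of 12 (-2.13), 8 of 10 (-0.20), 5 of 6 (-0.38) and 10 of 10 (-0.67). The part of these lists in the members' values was not tested.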

How the data were processed

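Poly-T selected RNA was sequenced as paired reads of 150 nt. As the series' design text and the submitters' processing notes state, the authors aligned them to GRCm39 with STAR 2.7.9a. They made the deposited counts, whole reads per gene and not normalized, with featureCounts (Subread 2.0.1) and the Ensembl 104 annotation. The notes also list mm10, and settings for strand, multiple alignments and overlaps are not given in the sources used here.

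The 12 count files were joined and annotated with GENCODE M39 on GRCm39. Genes passing filterByExpr (17501) were tested with edgeR 4.0.16 (R 4.3.3): TMM scaling, a quasi-likelihood fit with 1 term per group over all 12 libraries, and Benjamini-Hochberg adjustment over all genes at 0.05. Differences are log2 values with their standard errors. Deviations and spreads use TMM-scaled log2 CPM with a prior count of 2. DESeq2 1.42.0 and limma 3.58.1 (voom with quality weights) were alternatives. The edgeR step was tested on simulated data. No libraries were duplicates. P-values measure the spread between these pools.

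Same-numbered control libraries correlated in their deviations from the group means at 0.390, 0.198, 0.325 and 0.396, so control numbers were taken as pairs; those of embWPC ALBSF lay between -0.147 and 0.0510 and were not. In pair 2, Xist stood at 68.6 and 0.0597 CPM in Ctrl ALBSF and Ctrl PMBSF, and Ddx3y, a gene of the Y chromosome, at 0 and 33.7 CPM. These pools were thus not of the same pups. In pairs 1, 3 and 4, Xist stood at 22.8 and 23.2, 0.0628 and 0.125, and 14.8 and 14.9 CPM. Ddx3y stood at 12.0 and 7.04, 28.9 and 37.9, and 19.7 and 18.6 CPM. The pairing rests on correlations in these same data.

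The members, gene lists and tests were chosen with earlier results of these data known. Genes named are the mitochondrially encoded ones, the highest and lowest per kilobase of each complex, the 6 with the smallest p in each comparison, any called gene, paralog sets, X-linked members and those next to the level limit; others are marked. Levels per kilobase use the canonical transcript of GENCODE. Copies of the mitochondrial genome were found with blastn at 95% identity or more. Library totals of 28457046 to 34512840 counts limit the precision of the lowest members.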

Additional observations from a re-analysis of the deposited data

Results flagged for a closer look

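The summed shares and the CPM of the mitochondrially encoded members and of the members with the smallest p were checked, group by group, for 1 library far from the other 3. Of the 96 groups of values tested, 3 had one, and chance flags about 1 group in 20. mt-Co1 stood at 5148 CPM in Ctrl ALBSF 2, with 3794 to 3881 in the other 3 libraries of the group. mt-Nd6 stood at 307 CPM in the same library, with 192 to 206 in the others. mt-Cytb stood at 8664 CPM in embWPC ALBSF 3, with 7206 to 7440 in the others. All 3 are mitochondrially encoded, and in each case the outlying library was the high one.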

How the results depend on the processing

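No member was called under any alternative in any comparison, except in the fit with coding length offsets and the replicate block, added after the data were seen, where 8 were called in Ctrl PMBSF against Ctrl ALBSF; the cause was not tested. The replicate block alone called 0 members there and, with the embWPC libraries, whose numbers do not pair them, 0 members in either comparison, where it called 1 and 0 of all genes. Over fits leaving out 1 library, the median of the nuclear members ran from -0.21 to -0.03, from -0.37 to -0.04 and from -0.26 to 0.08 in the 3 comparisons, and that of the mitochondrially encoded members from -0.45 to -0.16, from -0.16 to 0.10 and from 0.17 to 0.46. Under other scalings none of these medians changed sign. Without embWPC ALBSF 2 and 4, Ndufb5 went from -0.27 to 0.0037 against Ctrl PMBSF.

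The number of all genes called was less stable. Against the 284, 11 and 1 reported, DESeq2 called 523, 181 and 77, voom 443, 75 and 1, and edgeR with no count filter 398, 121 and 72. Leaving out 1 library gave 127 to 249, 1 to 22 and 1 to 3; in the first comparison the counts were 160, 127 and 155 without Ctrl ALBSF 2, 3 and 4 and 163 without Ctrl PMBSF 2.

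With the union of exons as length, median levels per kilobase were 33.8, 44.9, 62.7, 33.8 and 40.1 CPM for nuclear complexes I to V. The shorter GABPA core CGGAAG was present in 42.1% of member promoters and 16.9% of all.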
